A study of Mus musculus with 5 samples.

Results

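Collagen is hydroxylated, folded, trimmed and crosslinked by a set of dedicated enzymes and helper proteins, and 10 of their genes were examined in mouse neural stem cells (NSCs) and STO fibroblasts. The genes were taken from the deposited tables by their RefSeq transcript identifiers, and all 10 were found among 25414 genes. They were chosen by function, but with earlier results of these data known. They comprise the prolyl hydroxylase subunits P4ha1 and P4ha2, the lysyl hydroxylases Plod1 and Plod2, and the lysyl oxidases Lox, Loxl1 and Loxl2. The others are the chaperone Serpinh1, and Bmp1 and Pcolce, which act on the propeptides. The NSCs were primary cells from the cortex of E12.5 mouse embryos, grown for 5 to 8 passages on poly-L-ornithine and laminin in medium with B27, heparin, EGF and bFGF, and 2 replicates were available. The comparison was with 3 replicates of STO cells, an established fibroblast line from SIM mouse embryos that resists thioguanine and ouabain, grown for more than 30 passages in medium with fetal bovine serum and used as feeder cells elsewhere in the study. Both are labelled C57BL/6, and no treatment is listed for either. The groups differ in more than cell type, so that cell type, passage, serum and substrate cannot be told apart. The labels do not say whether replicates came from separate cultures, so p-values measure only the spread between these samples.

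Newly made procollagen chains enter the endoplasmic reticulum, where prolyl 4-hydroxylase converts prolines to hydroxyproline, which keeps the triple helix stable at body temperature. Lysyl hydroxylases modify lysines that later form crosslinks or carry sugars, and the chaperone HSP47, the product of Serpinh1, binds the folded helix on its way to the Golgi. Outside the cell, BMP1 removes the C-terminal propeptide with the help of the enhancer PCOLCE, and copper-dependent lysyl oxidases oxidize lysines so that fibrils become covalently crosslinked. Fibroblasts are the classical producers of fibrillar collagen, and the embryonic cortex holds little of it outside its vessels and coverings.

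Expression is given in FPKM, fragments per kilobase of transcript scaled to the mapped total, summed over the RefSeq transcripts of a gene. Because FPKM is scaled by length, levels can be set side by side between genes. The FPKM of all transcripts summed to 442905 and 446393 in the NSC replicates and to 385485 to 399970 in the STO replicates. Values were not rescaled to these totals, so small differences between the cell types can depend on the scaling. The files hold no read counts, but the confidence intervals deposited with the values implied about 15200000 to 22300000 fragments per sample. Across genes, Pearson's r of log2(FPKM + 1) was 0.994 between the NSC replicates and 0.994 to 0.995 between the STO replicates. The NSC markers Sox2, Nes, Pax6 and Olig2 were at 276 to 308, 169 to 176, 5.04 to 5.22 and 493 to 499 FPKM in the NSC replicates. In STO cells Sox2, Pax6 and Olig2 were listed at 0, and Nes was at most 0.072 FPKM. The 6 fibroblast markers summed to 31.5 to 31.7 FPKM in NSCs, nearly all of it Pdgfra, and to 1352 to 1434 FPKM in STO cells. The NSC libraries also held markers of other neural cells, with 114 to 117 FPKM for the 3 oligodendrocyte markers and 64.5 FPKM in both replicates for the 3 astrocyte markers, against at most 1.14 and 0.22 FPKM in STO cells. The 4 neuron markers summed to 14.3 to 16.1 FPKM in NSCs and 7.84 to 8.61 FPKM in STO cells, where nearly all of it was Tubb3, which was at 8.69 ± 0.78 FPKM (SD, n = 2) in NSCs and 8.30 ± 0.40 FPKM (SD, n = 3) in STO cells. The 3 mural markers summed to 70.7 to 74.9 FPKM in STO cells and 2.34 to 2.37 FPKM in NSCs. In STO cells nearly all of it was Acta2 (46.2 to 51.2 FPKM) and Pdgfrb (23.7 to 24.8 FPKM). Rgs5 went the other way, at 0.23 to 0.25 FPKM in NSCs and at most 0.057 FPKM in STO cells. Microglia markers reached 10.1 FPKM in STO cells, of which Tmem119 made up at least 9.49 FPKM in every replicate while Aif1 and Cx3cr1 were near 0, and endothelium and epithelium markers stayed at or below 0.50 FPKM in all samples. Whether minor cell types contribute to the values of the 10 genes was not tested, and in bulk RNA fewer cells of a type and less RNA per cell cannot be told apart.

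For P4ha1, P4ha2 and Plod2, the 2 cell types differed in which transcripts the gene was assigned to. For each gene, 2 transcripts in the annotation of the same genome build (GENCODE vM1, mm9) were therefore compared, and the internal exons by which they differ are shown first. Other annotated transcripts were not compared. Each is a coding exon on the plus strand, printed in capitals with 10 intron bases on either side in lower case. The deposited tables name transcripts by RefSeq identifier only, and which identifier contains which exon is not given in the sources used here. In Plod2, the 2 transcripts compared differ by a cassette exon of 63 bases at chr9:92496823-92496885.
Plod2 exon 14 of 20: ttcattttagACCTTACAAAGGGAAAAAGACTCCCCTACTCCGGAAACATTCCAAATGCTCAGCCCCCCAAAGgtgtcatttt
In P4ha1, 2 exons of 71 bases each replace one another, at chr10:58817088-58817158 and chr10:58818098-58818168.
P4ha1 exon 9, upstream form: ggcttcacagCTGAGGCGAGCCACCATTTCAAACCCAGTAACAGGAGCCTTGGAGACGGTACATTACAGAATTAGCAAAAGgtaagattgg
P4ha1 exon 9, downstream form: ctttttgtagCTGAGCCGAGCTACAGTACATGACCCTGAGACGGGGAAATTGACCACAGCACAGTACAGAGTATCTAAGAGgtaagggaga
In P4ha2, an exon of 60 bases at chr11:53939740-53939799 and an exon of 66 bases at chr11:53939848-53939913 replace one another in the same way.
P4ha2 exon 13, upstream form: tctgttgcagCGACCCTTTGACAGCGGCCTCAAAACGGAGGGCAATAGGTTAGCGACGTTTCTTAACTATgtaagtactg
P4ha2 exon 13, downstream form: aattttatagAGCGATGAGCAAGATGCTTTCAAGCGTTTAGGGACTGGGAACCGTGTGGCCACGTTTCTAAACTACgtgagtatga
The P4ha1 exons were identical at 42 of 71 positions (59.2%) without a gap. The P4ha2 exons were identical at 37 of 66 positions (56.1%) in a global alignment. The Plod2 exon and both P4ha2 exons are multiples of 3 in length, so including, skipping or exchanging them keeps the reading frame, and the P4ha1 exons keep it by having the same length.

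The 10 genes did not move together between the cell types. Lox, Loxl1, Pcolce, Serpinh1 and P4ha2 rose in STO cells, Loxl2 and P4ha1 fell, Plod1 rose slightly, and Plod2 and Bmp1 did not pass the test as gene totals. Counted with an adjusted p-value under 0.05 (limma on log2(FPKM + 1), Benjamini-Hochberg over 12292 genes), 6 of the 10 were higher and 2 lower in STO cells. The background was high, since 41.9% of all genes tested were higher and 43.7% were lower by the same rule (85.6% in either direction), so a call by itself says little about a gene. When a difference of at least 1 on the log2 scale was also required, 5 of the 10 genes were higher and 1 lower, against 17.1% and 21.3% of all genes. The median difference over the 10 genes was 1.62, against -0.023 over all genes tested. Because the 10 genes were chosen with earlier results of these data known, these counts and medians are a description. Genes were tested if their mean was at least 1 FPKM in either cell type. All 10 passed, but Lox and Loxl1 passed only through STO cells and Loxl2 only through NSCs, so these had to differ to some extent.

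**Figure D1:**
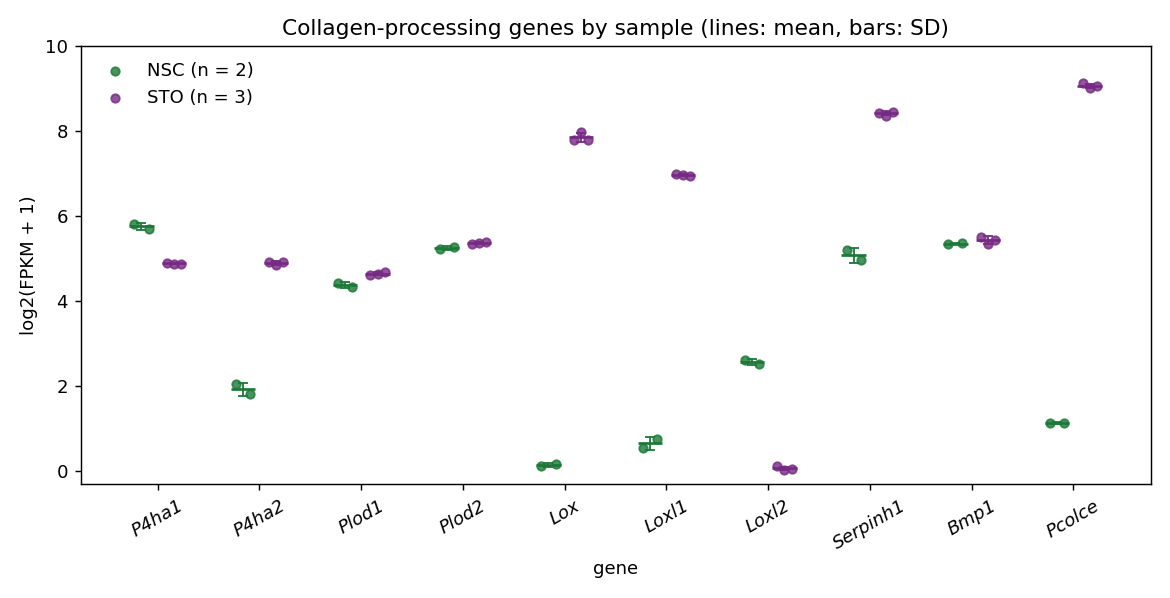
Expression of the 10 collagen-processing genes, as log2(FPKM + 1) on the vertical axis, in 2 NSC replicates (green) and 3 STO replicates (purple). Points are samples, lines are means and bars are SDs; Pcolce, Lox, Loxl1 and Serpinh1 lie far higher in STO cells, Loxl2 and P4ha1 lie lower, and Bmp1 overlaps between the cell types.

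In NSCs the order of levels was P4ha1, Bmp1, Plod2, Serpinh1, Plod1, Loxl2, P4ha2, Pcolce, Loxl1 and Lox, from a mean of 53.2 FPKM down to 0.11 FPKM, and no neighbours in this order overlapped over the 2 replicates. In STO cells the order was Pcolce, Serpinh1, Lox, Loxl1, Bmp1, Plod2, P4ha2, P4ha1, Plod1 and Loxl2, from 535 FPKM down to 0.053 FPKM. There Bmp1 overlapped with Plod2, and P4ha2 with P4ha1. Pcolce, at place 8 in NSCs, thus stood at the top in STO cells, while P4ha1 moved from the top to place 8. Over the replicates, 7 of the genes were higher and 2 were lower in every STO sample than in every NSC sample, and 1, Bmp1, overlapped. Such separation was common, with 43.9% of all genes tested higher and 46% lower without overlap.

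Among the prolyl hydroxylases, P4ha1 was far above P4ha2 in NSCs, and the 2 alpha subunits were at overlapping levels in STO cells. P4ha1 encodes the alpha subunit of the most widespread form of the enzyme (mm9, as for all genes here, chr10:58786044-58836052). It was at 55.6 and 50.7 FPKM in the NSC replicates and at 28.9, 28.6 and 28.5 FPKM in the STO replicates. Both NSC replicates were above all STO replicates, and the gene fell by 0.87 ± 0.057 (SE) on the log2(FPKM + 1) scale (limma, adjusted p = 1.44e-05). P4ha2 encodes an alternative alpha subunit that forms its own enzyme with the same beta subunit (chr11:53914426-53945169). Its values were 3.13 and 2.55 FPKM in NSCs and 29.4, 27.9 and 29.5 FPKM in STO cells. The groups did not overlap, and P4ha2 rose by 2.97 ± 0.078 (SE) on the log2(FPKM + 1) scale (limma, adjusted p = 1.71e-07), a ratio of mean FPKM of 10.2. P4ha3, the remaining paralog, was low in both, with 0.16 FPKM in each NSC replicate and 0.85 to 1.11 FPKM in STO cells.

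The sum of the 3 alpha subunits, in FPKM as deposited, differed between the cell types by less than the SD of the NSC replicates. It was 56.2 ± 3.86 FPKM (SD, n = 2) in NSCs and 58.6 ± 0.98 FPKM (SD, n = 3) in STO cells, and the values of single replicates overlapped. The FPKM totals of the STO samples were lower than those of the NSC samples. Whether the sums still overlap once divided by these totals was not tested. P4ha1 made up 94.4% and 94.9% of this sum in the NSC replicates and 48.4% to 49.7% in the STO replicates. The share of P4ha2 was 5.31% and 4.77% in NSCs and 48.5% to 50.2% in STO cells. An exact permutation test over samples gives p = 0.2 (two-sided, the smaller tail doubled) for both shares. That is the smallest value this test can give with 2 against 3 samples, so no share can pass 0.05 in this design. P4hb, the beta subunit that both alpha subunits need and that is also a protein disulfide isomerase, was looked at after its values were seen and rose from 148 ± 2.77 FPKM (SD, n = 2) to 317 ± 14.8 FPKM (SD, n = 3).

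**Figure D2:**
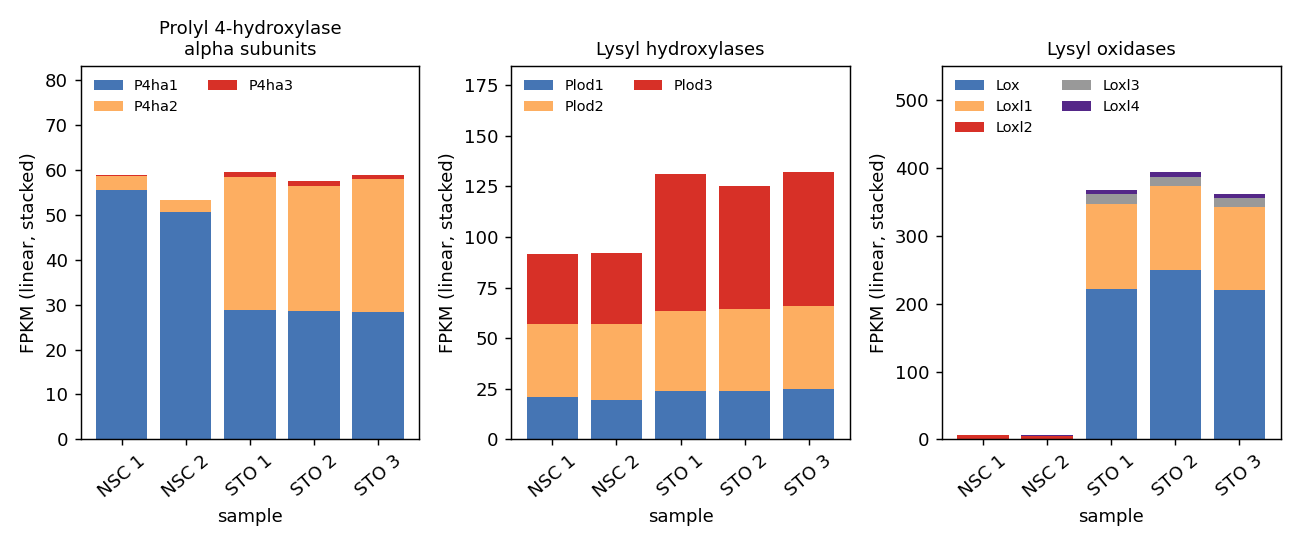
FPKM of the members of 3 enzyme families, stacked on a linear axis from 0, in each of the 5 samples. In FPKM as deposited, the summed prolyl 4-hydroxylase alpha subunits are level across samples, while P4ha2 takes up 48.5% to 50.2% of the STO bars. Plod3 accounts for most of the higher lysyl hydroxylase sum in STO cells, and the lysyl oxidases are nearly absent from the NSC bars.

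The listed transcripts of both alpha subunits shifted as well. For P4ha1, NM_001316371 made up 67.2% and 65.0% of the gene in the NSC replicates and 45.4%, 50.9% and 50.8% in the STO replicates, with NM_011030 as the rest and NM_001316370 at 0 throughout. The 2 groups did not overlap, with p = 0.2 in the exact permutation test, the smallest possible. Taken singly, NM_001316371 fell by 1.26 ± 0.079 (SE) on the log2(FPKM + 1) scale (limma over 16257 transcripts, adjusted p = 0.00013). NM_011030 fell by 0.29 ± 0.068 (adjusted p = 0.015, limma), so most of the lower P4ha1 level lay in the former. For P4ha2, NM_001136076 was the larger transcript in all samples, with 88.8% and 76.7% in NSCs and 66.4%, 62.8% and 65.1% in STO cells. In NSCs the shares of P4ha2 rested on few fragments, since the intervals implied 13.0 and 26.8 fragments for NM_011031.

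The lysyl hydroxylases were expressed in both cell types, Plod1 and Plod2 at similar gene totals and Plod3 higher in STO cells. Plod1, which acts on lysines within the helix (chr4:147283862-147310885), was at 20.7 and 19.2 FPKM in NSCs and at 23.6, 23.8 and 24.9 FPKM in STO cells. All STO replicates were higher, and the rise was 0.26 ± 0.057 (SE) on the log2(FPKM + 1) scale (limma, adjusted p = 0.0048). Plod2, which acts on the telopeptides at the ends of the helix and thereby sets which kind of crosslink forms (chr9:92437061-92503265), was at 36.3 and 37.7 FPKM in NSCs and at 39.8, 40.5 and 41.2 FPKM in STO cells. The groups did not overlap, but the difference of 0.13 ± 0.049 (SE) had an adjusted p of 0.0503 by limma, with a 95% interval of the difference from 0.0054 to 0.25. This call lay at the threshold, and without NSC replicate 2 it was 0.15 with an adjusted p of 0.027. Plod3, which also transfers glucose and galactose onto hydroxylysine, rose by 0.88 ± 0.061 (adjusted p = 1.92e-05, limma), from 34.8 ± 0.27 FPKM (SD, n = 2) to 64.8 ± 3.48 FPKM (SD, n = 3). The 3 lysyl hydroxylases summed to 91.8 ± 0.24 FPKM (SD, n = 2) in NSCs and 129 ± 3.65 FPKM (SD, n = 3) in STO cells. Plod2 made up 39.6% and 41.0% of that sum in NSCs and 30.4% to 32.3% in STO cells.

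Although the Plod2 total barely moved, its transcripts did. NM_011961 was at 23.1 and 21.6 FPKM in the NSC replicates, which is 63.6% and 57.3% of the gene, and was listed at 0 in all 3 STO replicates. NM_001142916 was at 13.2 and 16.1 FPKM in NSCs and, as the only transcript above 0, at 39.8, 40.5 and 41.2 FPKM in STO cells. The share of NM_011961 therefore went from 60.5% ± 4.45 (SD, n = 2) to 0 in every STO replicate (exact permutation p = 0.2, the smallest possible). NM_001142916 rose by 1.41 ± 0.089 (SE) on the log2(FPKM + 1) scale (limma over transcripts, adjusted p = 0.00014), and NM_011961 fell by 4.55 ± 0.059 (adjusted p = 1.44e-06, limma). NM_011961 reached 1 FPKM only in NSCs, so it had to differ to some extent. The transcript values were not thinly covered, since the intervals implied 1076 to 1085 fragments for NM_011961 in NSCs and 1368 to 1615 fragments for NM_001142916 in STO cells. Plod2 is known to be made with and without 1 short exon, and the 63-base cassette shown above is the only internal exon by which the annotated transcripts compared differ. Transcripts of a gene share most exons and are split by the Cufflinks model, so that 0 FPKM for a transcript may be an estimate at its bound. The SE and p-values do not include the uncertainty of this split.

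**Figure D3:**
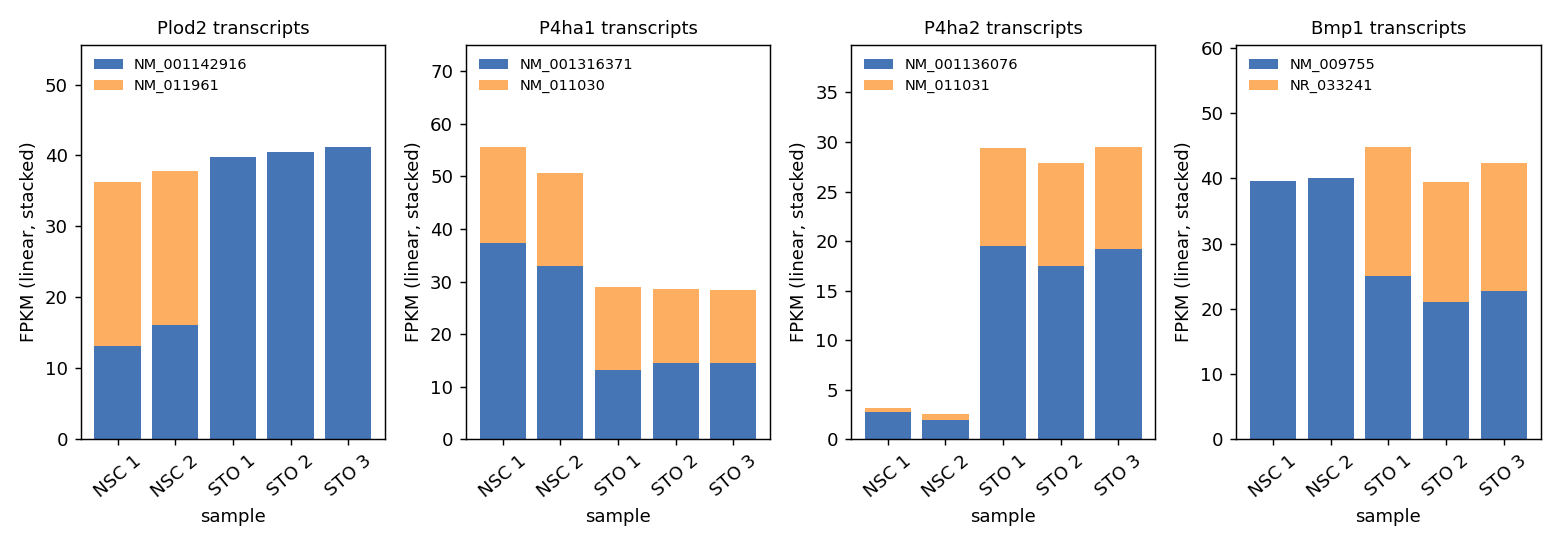
FPKM of the RefSeq transcripts of Plod2, P4ha1, P4ha2 and Bmp1 that were above 0 in any sample, stacked on a linear axis from 0, for each sample. The Plod2 bars are nearly equal in height but lack NM_011961 in the 3 STO samples, and the Bmp1 bars gain NR_033241 in STO samples only.

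The lysyl oxidases showed the widest range. Lox, the founding member of the family (chr18:52675714-52689521), was at 0.084 and 0.13 FPKM in NSCs and at 222, 250 and 220 FPKM in STO cells. Loxl1, which is best known for elastic fibers (chr9:58135530-58161019), was at 0.47 and 0.70 FPKM in NSCs and at 126, 124 and 122 FPKM in STO cells. In both genes every STO replicate was more than 100 FPKM above both NSC replicates. The rise was 7.71 ± 0.072 (SE) for Lox (limma, adjusted p = 5.26e-09) and 6.31 ± 0.073 for Loxl1 (adjusted p = 7.28e-09) on the log2(FPKM + 1) scale, which ranked them 13 and 41 of 12292 genes. The NSC values were close to the detection limit, with 12.1 implied fragments for Lox in replicate 1, 7.41 and 6.82 for its 2 transcripts in replicate 2, and 48.7 and 78.0 for Loxl1.

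Loxl2 went the other way. This enzyme has scavenger receptor domains ahead of its catalytic domain and crosslinks collagen IV of basement membranes (chr14:70009283-70095641). It was at 5.13 and 4.72 FPKM in NSCs and at 0.086, 0.030 and 0.045 FPKM in STO cells, where 2.95 to 9.09 fragments were implied. Both NSC replicates were far above the STO replicates, and Loxl2 fell by 2.49 ± 0.053 (SE) on the log2(FPKM + 1) scale (limma, adjusted p = 6.55e-08). Loxl3 was listed at 0 in both NSC replicates and at 14.1, 13.3 and 13.8 FPKM in STO cells. Loxl4 rose from 0.16 ± 0.046 FPKM (SD, n = 2) to 5.90 ± 0.24 FPKM (SD, n = 3). Of the summed lysyl oxidase FPKM, which was 5.77 ± 0.14 (SD, n = 2) in NSCs and 375 ± 16.8 (SD, n = 3) in STO cells, Loxl2 made up 87.4% and 83.3% in NSCs and at most 0.023% in STO cells. Lox took 60.3% to 63.5% and Loxl1 31.6% to 34.3% of the sum in STO cells. Loxl2 lies on the same chromosome as Bmp1, 779 kb from it, and Bmp1 did not fall with it.

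Serpinh1 encodes HSP47, a chaperone dedicated to collagen (chr7:106493885-106501749). Its values were 35.9 and 30.1 FPKM in NSCs and 344, 327 and 349 FPKM in STO cells. Even the lowest STO replicate was above both NSC replicates, with a ratio of means of 10.3. The rise was 3.33 ± 0.086 (SE) on the log2(FPKM + 1) scale (limma, adjusted p = 1.55e-07). Thus the chaperone was at a clear level in NSCs too, unlike the fibrillar collagen chains Col1a1, Col1a2 and Col3a1. NM_001111044 was the only Serpinh1 transcript above 0 in NSCs, while NM_001111043 made up 15.1%, 13.4% and 14.6% in the STO replicates, and NM_001285776 and NM_009825 were at 0 throughout.

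Bmp1 and Pcolce act at the same step but differed in their pattern. Bmp1, the procollagen C-proteinase (chr14:70874362-70920479), was at 39.6 and 40.1 FPKM in NSCs and at 44.8, 39.5 and 42.4 FPKM in STO cells. The values overlapped, and the difference of 0.080 ± 0.066 (SE) did not pass the test (limma, adjusted p = 0.29, 95% interval -0.081 to 0.24). The difference was 0.033 with median scaling and 0.11 with quantile normalization, and passed with neither (limma, adjusted p = 0.62 and 0.12). This overlap is in FPKM as deposited. Whether it remains once values are divided by the FPKM totals, which were lower in STO samples, was not tested. Pcolce, which speeds up cleavage by BMP1 and has no protease activity of its own (chr5:138046335-138052632), was at 1.22 and 1.19 FPKM in NSCs and at 555, 519 and 530 FPKM in STO cells. It rose by 7.92 ± 0.053 (SE) on the log2(FPKM + 1) scale (limma, adjusted p = 3.47e-09), at rank 9 of all genes tested and with a ratio of means of 444. The enhancer thus went from far below the protease to far above it in FPKM. Its paralog Pcolce2 fell, from 3.81 ± 0.28 FPKM (SD, n = 2) to 0.36 ± 0.13 FPKM (SD, n = 3).

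The level of Bmp1 hid a difference in the transcripts it was assigned to. In NSCs all of it was assigned to NM_009755. In STO cells NM_009755 was at 25.1, 21.0 and 22.8 FPKM and NR_033241, which carries the RefSeq prefix of non-coding transcripts, at 19.8, 18.4 and 19.7 FPKM. NR_033241 thus made up 44.1%, 46.7% and 46.3% of the gene in STO cells and was listed at 0 in both NSC replicates. Taken singly, NM_009755 fell by 0.77 ± 0.082 (SE) on the log2(FPKM + 1) scale (limma over transcripts, adjusted p = 0.00084), although the gene total did not. NR_033241 reached 1 FPKM only in STO cells, so it had to differ to some extent. As for Plod2, the split is made by the Cufflinks model, a 0 may be an estimate at its bound, and the SE and p-value leave out this uncertainty. For Lox, NM_010728 made up 83.5%, 76.9% and 78.3% in STO cells and NM_001286182 the rest, and shares in NSCs rested on too few fragments to compare. No transcript of these genes had a failed estimate, and 5 of the 21 listed were at 0 in every sample.

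The substrates set the context. The fibrillar collagen chains Col1a1, Col1a2 and Col3a1 together were at 0.16 and 0.20 FPKM in NSCs and at 906 to 985 FPKM in STO cells. Thus P4ha1, Plod1, Plod2, Bmp1 and Serpinh1 were at 19.2 to 55.6 FPKM in cells that had almost no RNA for these chains. Other collagen chains were not examined, so this does not show that the NSCs lacked substrates.

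The other genes of the pathway were followed in 6 lists of 42 genes, of which 38 were tested. STO cells had higher levels of 28 of these and lower levels of 7 (over all genes tested, 41.9% and 43.7%), with a median difference of 0.83 against -0.023. These counts are a description, since 7 of the 38 reached 1 FPKM only in STO cells and 3 only in NSCs, and so had to differ to some extent. The lists were also chosen with earlier results of these data known. Of the 28 genes that reached 1 FPKM in both cell types, 21 were higher and 4 lower. The share over all genes that reached it in both cell types was not computed. The counts of the single lists stand against the same shares over all genes tested, with 85.6% called in either direction. Among 8 partners of hydroxylation 6 were higher and 2 lower. P3h1 and Crtap, which form the prolyl 3-hydroxylase complex together with cyclophilin B, rose from 6.86 ± 0.032 to 53.9 ± 2.85 FPKM and from 16.0 ± 2.03 to 91.7 ± 4.19 FPKM (SD, n = 2 and n = 3). P3h3 rose by 2.66 ± 0.069 (limma, adjusted p = 1.67e-07). P3h2, a prolyl 3-hydroxylase linked to collagen IV, fell from 12.4 ± 0.14 to 2.49 ± 0.26 FPKM, in the direction of Loxl2. Ppib, which encodes cyclophilin B, was already high and fell by 0.41 ± 0.082 (limma, adjusted p = 0.0034).

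Of 5 genes of lysyl hydroxylation and glycosylation, 3 were higher and 1 lower. Fkbp10, which encodes the chaperone FKBP65 needed for lysine hydroxylation in telopeptides, was listed at 0 in NSCs and was at 59.5, 59.5 and 62.2 FPKM in STO cells. The collagen galactosyltransferases diverged. Colgalt1 was at 37.8 ± 1.16 FPKM (SD, n = 2) and 40.5 ± 1.59 FPKM (SD, n = 3) and did not pass the test (limma, adjusted p = 0.15), while Colgalt2 fell from 8.62 and 8.19 FPKM to 0, 0.0095 and 0.014 FPKM. The 7 genes of the crosslinking list were higher in STO cells, but 5 of them (Fbln5, Loxl3, Loxl4, Postn and Tgm2) reached 1 FPKM only there and could hardly have gone the other way. Among them Postn, a matricellular protein that helps activate LOX, was at 0.021 and 0 FPKM in NSCs and 76.1 to 82.6 FPKM in STO cells. Fn1 rose from 4.09 and 3.80 FPKM to 370, 412 and 377 FPKM, and Fbln5, an elastic fiber protein that binds LOXL1, rose by 5.02 ± 0.054 (limma, adjusted p = 6.10e-09).

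In the folding and secretion list 10 of 11 genes were higher, mostly by little, with a median of 0.55. The COPII coat genes Sec24d and Sec31a stood out, from 7.14 ± 0.20 to 39.9 ± 0.98 FPKM and from 24.1 ± 0.24 to 95.3 ± 2.34 FPKM (SD, n = 2 and n = 3). Mia3, which loads procollagen into COPII carriers, rose by 0.77 ± 0.058 (limma, adjusted p = 2.72e-05). Pdia3, a general disulfide isomerase of the endoplasmic reticulum, rose by 0.88 ± 0.060 (limma, adjusted p = 1.75e-05). Creb3l1, a transcription factor for collagen secretion genes, did not pass the test (0.090 ± 0.082, adjusted p = 0.34, limma).

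Among 6 genes of propeptide removal, 3 were tested. Adamts3, Adamts14 and Pcolce2 were lower in STO cells, but Adamts3 and Pcolce2 reached 1 FPKM only in NSCs, so only Adamts14 could have gone either way. Adamts3 and Adamts14 are procollagen N-proteinases. Adamts3 went from 2.38 and 2.23 FPKM to 0 in all STO replicates, and Adamts14 from 11.3 and 10.9 FPKM to 4.97, 4.68 and 4.70 FPKM. Adamts2, the main N-proteinase of type I collagen in skin, was at most 0.040 FPKM in any sample, and was not tested. The BMP1 relatives Tll1 and Tll2 were not tested either. Tll1 was at 0.15 and 0.088 FPKM in NSCs and higher, at 0.83 to 0.95 FPKM, in STO cells, and Tll2 was at most 0.069 FPKM. Among 5 genes of cofactor supply, 4 were tested, of which 2 were higher and 1 lower. Atp7a, which pumps copper into the secretory pathway, rose from 2.39 ± 0.076 to 11.8 ± 0.73 FPKM, and Slc39a13, a zinc transporter, from 7.01 ± 0.88 to 32.1 ± 1.87 FPKM (SD, n = 2 and n = 3). The copper importer Slc31a1 fell by 0.74 ± 0.056 (limma, adjusted p = 2.75e-05). Slc23a2, a vitamin C transporter, was at 12.3 FPKM in both cell types on average.

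**Figure D4:**
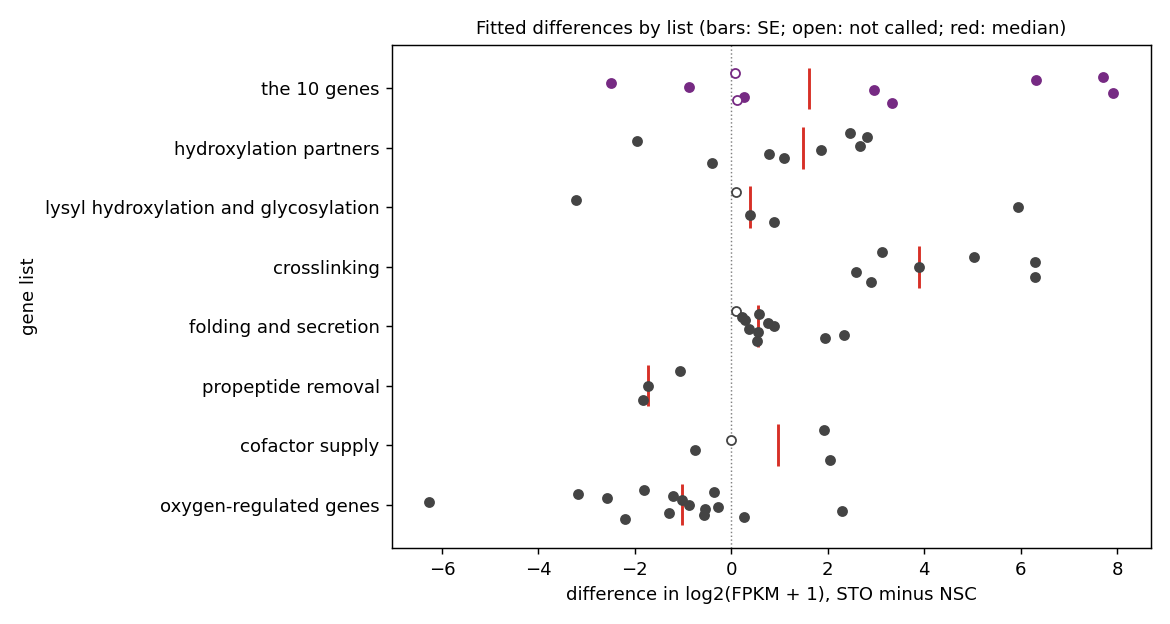
Fitted difference in log2(FPKM + 1), STO minus NSC, for the 10 genes (purple) and for the genes of 7 lists (grey), 1 point per gene with its SE (bars no wider than the points). Open points did not pass an adjusted p of 0.05 and red lines are medians; genes of the crosslinking list lie to the right of 0, the 3 tested for propeptide removal to the left, and the 10 genes spread from -2.49 to 7.92.

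P4ha1, P4ha2, Plod2 and Lox are known as targets of the hypoxia-inducible factor HIF, so 15 other oxygen-regulated genes were examined. Of these 13 were lower and 2 higher in STO cells, against 43.7% and 41.9% of all genes tested, with a median of -1.02. Egln3, Ankrd37 and Car9 reached 1 FPKM only in NSCs, and of the 12 that reached it in both cell types 10 were lower and 2 higher. The matching share over all genes that reached it in both was not computed. Egln3, a HIF prolyl hydroxylase that is itself induced by HIF, went from 74.8 and 77.7 FPKM in NSCs to 0.017, 0 and 0 FPKM in STO cells. Ankrd37 was at 8.65 and 7.45 FPKM in NSCs and Car9, a carbonic anhydrase, at 5.49 and 4.42 FPKM, and both were listed at 0 in STO cells. Vegfa, the angiogenic growth factor, fell from 94.2 ± 9.01 to 19.7 ± 0.70 FPKM (SD, n = 2 and n = 3). The 2 that rose were Ndrg1, by 2.30 ± 0.053 (limma, adjusted p = 9.81e-08), and the glucose transporter Slc2a1, by 0.25 ± 0.074 (adjusted p = 0.018). P4ha1 shared the direction of the 13, while P4ha2 and Lox did not and Plod2 did not pass the test. The oxygen level of the cultures is not given in the sources used here, and whether oxygen or HIF bears on these levels was not tested.

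Since the alpha subunits moved in opposite directions, the bases upstream of their starts were searched for ACGTG on both strands. ACGTG is a form of the core of the HIF recognition sequence, and other forms were not searched. RefSeq windows (GRCm38.p6) of 250 bases before the start were found for 5 of the 10 genes. P4ha1, P4ha2 and Serpinh1 held 1 match to ACGTG each, and Plod1 and Pcolce held none, while 16.6% of all 32851 windows held at least 1. The match lay 16 bases before the start in P4ha1 and 78 bases before it in P4ha2. Both windows are printed on the plus strand with the match in capitals, for chr10:59323046-59323295 and chr11:54100674-54100923 of that build.
P4ha1 upstream: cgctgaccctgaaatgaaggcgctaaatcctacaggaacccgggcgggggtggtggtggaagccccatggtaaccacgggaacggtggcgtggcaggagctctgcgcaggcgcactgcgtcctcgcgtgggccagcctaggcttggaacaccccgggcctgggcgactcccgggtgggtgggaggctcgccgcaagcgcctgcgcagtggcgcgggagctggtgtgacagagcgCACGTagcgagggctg
P4ha2 upstream: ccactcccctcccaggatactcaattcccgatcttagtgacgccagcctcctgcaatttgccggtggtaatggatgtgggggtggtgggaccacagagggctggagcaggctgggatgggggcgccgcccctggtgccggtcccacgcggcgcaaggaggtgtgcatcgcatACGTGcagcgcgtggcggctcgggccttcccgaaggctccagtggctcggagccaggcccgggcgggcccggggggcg
A match is a description of these letters, and whether it bears on the level of either gene was not tested.

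The genes with the most similar levels over the 5 samples were found by the Euclidean distance of log2(FPKM + 1). Serpinh1 was closest to Pdgfra, at a distance of 0.26, and Lox to Cd34, at 0.23. P4ha2 was closest to Copz2, at 0.135, and Loxl2 to Ap3b2, at 0.067. Loxl1 was closest to Ptgs2, at 0.43. Pcolce had no close neighbour, since the nearest, Slpi, was at 1.03. P4ha1 was nearest to Lsm14b, Plod1 to Dhx36, Plod2 to Ubqln4 and Bmp1 to Lta4h, at 0.135, 0.080, 0.080 and 0.144.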

How the data were processed

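RNA-seq was examined for NSC replicates 1 and 2 and STO replicates 1, 2 and 3, grouped by their labels. By the paper's methods and the submitters' processing notes, paired reads of stranded mRNA libraries were trimmed, then mapped on mm9 using HISAT2 (given as version 4.8.2). The authors deposited FPKM values from Cufflinks 2.2.1 for 40201 RefSeq transcripts, named by identifier only, each with a lower and an upper confidence bound in the same unit. Depth was already divided out, and 0 can be a failed estimate.

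Symbols were matched through RefSeq identifiers (39951 transcripts, 99.4%), using a table for GRCm38.p6 for names only. Coordinates are from the deposited mm9 loci, given from 1. Where loci overlapped under 1 symbol, transcript FPKM were added up, giving 25414 genes. STO cells and NSCs were compared on log2(FPKM + 1) by limma 3.58.1 (R 4.3.3, empirical Bayes moderation with a mean-variance trend), for 12292 genes with a mean of at least 1 FPKM in either cell type, with Benjamini-Hochberg adjustment over all of them. The same fit was made over 16257 transcripts. Differences are STO minus NSC, and understate the change of low genes. Implied fragments take the distance from a value to its upper bound as 2 standard deviations of a Poisson count. They are approximate for transcripts that share exons, and cover counting error only. By this measure NSC replicate 2 had 1.10 times the depth of replicate 1, and the STO replicates 0.717, 0.822 and 1.09 times. Shares were compared by exact permutation over samples. The limma script was tested on simulated data. Python 3.11.15 with numpy 2.4.6, pandas 2.3.3, scipy 1.17.1 and matplotlib 3.10.9 was used otherwise.

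The 10 genes and the lists were chosen with earlier results of these data known. Values were given for up to 4 genes of each list, those with the largest called change and paralogs of the 10 genes, for P4hb, and for the few that went against the rest of their list or were not tested or called, the last 2 groups chosen after their values were seen. Alternatives changed the pseudocount, filter, normalization, trend, fold threshold, unit, status, pairing and replicates. The replicate numbers are not stated to pair the samples. A marker of the NSC list is not reported here.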

Additional observations from a re-analysis of the deposited data

How the results depend on the processing

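Of the 10 genes described, none changed direction in the gene-level fits under any alternative, and Plod2 was the only one whose call was gained. Its difference passed with a pseudocount of 0.1 (adjusted p = 0.042, limma), without a filter (0.040) and with quantile normalization (0.16, adjusted p = 0.020), and over all alternatives run its adjusted p went from 0.020 to 0.19. A required difference of at least 1 gave 2103 higher and 2617 lower genes, with 1 of the 10 lower, since P4ha1 and Plod1 fell short. With transcripts taken singly, 8 of the 10 had a transcript that was higher and 4 had a transcript that was lower, with Bmp1 and Plod2 counted in both. No single value could be given for the 6 genes with several transcripts. Leaving out each replicate gave 4703 to 5066 genes higher, 4887 to 5252 lower, 6 to 7 of the 10 higher and 2 lower, where a lone NSC sample is assumed to vary like the STO samples. The share of NM_011961 in Plod2 then fell by 57.3 to 63.6 percentage points.

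With the replicate number as a block, which leaves STO replicate 3 without a partner, 4994 genes were higher and 5252 lower, and 6 of the 10 were higher and 2 lower. Deviations of samples with the same number correlated at 0.0075 and 0.061. With 2 NSC samples their deviations mirror each other, so these values do not decide whether the numbers pair the samples. Without NSC replicate 2, the share of NM_001286182 in Lox was 20.4 points higher in STO cells, against -4.76 with it, and the reverse held for NM_010728 (-20.4 against 4.76). Depth limits Lox and Loxl1 in NSCs and Loxl2 in STO cells, and with 2 against 3 samples no permutation test over samples could pass 0.05.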
